A study of Mus musculus with 4 samples.

Results

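Messenger RNA of 10 immediate early genes was described in 4 RNA-seq libraries of mouse primary cells labelled T-helper 17 (Th17), the CD4 T cells that make interleukin 17. The genes are Egr1, Egr2 and Egr3, Nr4a1, Nr4a2 and Nr4a3, Ier2, Ier3 and Ier5, and Cd69. They were taken by name, all 10 were found, and the deposited tables hold 50600 gene rows in all. The cells came from strain C57BL/6NJ with no transgene or treatment in the labels. The 4 libraries form 1 group, have a biosample record each and share 1 donor record. The names of the alignments they were counted from hold an hour tag of 0. The labels link to a protocol for differentiating CD4 T cells and give no control group, so a resting or a stimulated state was not compared. The labels number the libraries as biological replicates but do not say whether the 4 biosamples came from separate animals or cultures, so p-values measure only the spread between these samples, part of which may be technical.

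Immediate early genes are transcribed within minutes of a signal by factors that the cell already holds, and most of their mRNAs are short-lived. In T cells the antigen receptor signals weakly and continually when it meets self peptides on MHC molecules, and this tonic signal keeps some of these genes active without full activation. The ERK route acts through ELK factors and serum response factor, which binds the CArG box, on genes such as Egr1, Egr2 and Ier2. The calcium route acts through MEF2, NFAT and CREB factors, and CREB binds the cyclic AMP response element, on genes such as Nr4a1.

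The label was first set against marker genes. TPM (a transcript level scaled for gene length and library total) was computed from the counts. Of 12 Th17 markers 5 reached 1 TPM in every library and their summed level ran from 19.0 to 30.9 TPM. All 10 markers of naive T cells passed that level and summed to between 7339 and 8158 TPM, so the libraries are called Th17-labelled here. All 10 markers shared by T cells passed it as well, at 13118 to 13459 TPM in sum. The 2 CD8 markers summed to 39.1 to 46.1 TPM, with Cd8b1 at 42.9 ± 2.88 TPM (SD, n = 4, as for every mean below) and Cd8a at 0.150 ± 0.0772 TPM, and the 4 regulatory T-cell markers to 18.6 to 24.4 TPM. Markers of B cells (1 of 8 at 1 TPM, sum 7.22 to 8.41), myeloid cells (2 of 9, 10.8 to 16.5), dendritic cells (0 of 6, 0.253 to 0.520) and NK cells (0 of 5, 0.980 to 1.61) were low. Among the myeloid markers Cd68 was at 11.1 ± 2.81 TPM and Itgam at 1.61 ± 0.224 TPM, while Cd14 had 0 counts in all 4 libraries, which allows up to 0.134 to 0.229 TPM. Library totals were 29041979, 35018552, 48808978 and 45490373 counts in replicates 1 to 4. Counts of each pair of libraries differed by more than sampling noise, with chi-square per degree of freedom from 9.88 to 31.4.

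Promoter sequences are shown for the members whose windows hold a CArG box or the half-site of the cyclic AMP response element, given below. The windows are the 250 bases before a RefSeq start site (build GRCm38.p6), and 6 of the 10 members were in that table: Egr2, Nr4a1, Nr4a2, Nr4a3, Ier3 and Ier5. The half-site of the cyclic AMP response element, TGACG on either strand, occurred 4 times in the window of each NR4A gene. Of 32851 windows in the genome 17.8% hold at least 1 and 0.137%, or 45, hold 4 or more. The cut of 4 equals the count in the NR4A windows, which are among the 45. The half-site was 1 of several motifs scanned, so this share is not a test. Capitals mark the half-sites below and, in Egr2, also the CArG box.
Nr4a1 (chr15:101266596-101266845, plus strand): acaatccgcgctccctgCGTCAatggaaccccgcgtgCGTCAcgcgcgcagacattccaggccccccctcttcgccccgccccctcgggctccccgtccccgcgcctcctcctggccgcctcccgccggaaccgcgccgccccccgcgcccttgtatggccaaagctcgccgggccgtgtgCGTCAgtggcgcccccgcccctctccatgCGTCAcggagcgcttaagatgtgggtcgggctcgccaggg
Nr4a2 (chr2:57124004-57124253, minus strand): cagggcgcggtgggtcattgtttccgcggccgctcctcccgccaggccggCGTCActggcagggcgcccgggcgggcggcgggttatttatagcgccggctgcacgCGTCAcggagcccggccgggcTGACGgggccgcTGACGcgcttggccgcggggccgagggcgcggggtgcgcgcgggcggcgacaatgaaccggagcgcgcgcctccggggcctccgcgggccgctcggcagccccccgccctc
Nr4a3 (chr4:48045055-48045152, plus strand, the stretch with 3 of its 4 half-sites): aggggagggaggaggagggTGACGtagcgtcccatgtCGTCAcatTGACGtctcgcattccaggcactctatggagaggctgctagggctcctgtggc
Egr2 (chr10:67537619-67537868, plus strand): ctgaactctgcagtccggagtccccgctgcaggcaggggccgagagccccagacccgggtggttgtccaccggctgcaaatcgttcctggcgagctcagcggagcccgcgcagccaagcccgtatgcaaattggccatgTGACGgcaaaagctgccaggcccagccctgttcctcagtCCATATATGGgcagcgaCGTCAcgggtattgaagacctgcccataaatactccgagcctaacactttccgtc

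The Egr2 window above, 1 of 5 for this gene, held a CArG box from base -72 to base -63 counted from the start site, spelled CCATATATGG, and 2 half-sites. A CArG box was found in 1.47% of all windows. The full response element TGACGTCA was in none of the member windows and in 1.55% of all. Nr4a1 and Nr4a2 each held 1 copy of the letters bound by EGR proteins, GCGNGGGCG, which 4.70% of all windows hold, and in both genes it overlapped a GC box, GGGCGG. Neither TGACG nor a CArG box was in the windows of Ier3 and Ier5. GC content was 74.4% for Nr4a1, 80% for Nr4a2 and 63.6% for Nr4a3, against a median of 52.4%, and a GC-rich window holds GC-rich letters more often. A match is a description of the letters and not evidence that a factor is bound.

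Short-lived mRNAs often carry AU-rich elements in the 3′ untranslated region, where ZFP36 proteins bind. The pentamer ATTTA was in the 3′ untranslated region of 9 of the 10 members, all but Ier2, against 63.1% of 20571 protein-coding genes (GENCODE M21 principal transcripts). The longer TATTTAT was in 4 of 10, against 26.2%, and TTATTTATT was in 0 of 10, against 7.17%. The median length of this region was 1208 bases in members and 857 in all genes, so members offer more bases to match. Per kilobase of the region, the median number of ATTTA pentamers was 2.2 in members and 1.18 in all genes. The sites of the 4 genes are shown with the heptamer of each site in capitals, since the other 6 members hold none. Sites 1 and 2 of Ier3 are neighbours, at bases 182 to 188 and 190 to 196 of the region. Their printed stretches overlap, and each also holds the heptamer of the other in lower case.
Nr4a2: attttgtgccTATTTATgaataaatat
Nr4a3, site 1: gctttgcctgTATTTATtgcaagacca
Nr4a3, site 2: gttacatataTATTTATaatgtgtctt
Cd69: ctagagttacTATTTATtgccgaatga
Ier3, site 1: gtctaattaaTATTTATgtatttatgt
Ier3, site 2: aatatttatgTATTTATgtatatcctc
Ier3, site 3: gtgtatgtaaTATTTATtctaacttat
Ier3, site 4: gtaacacagaTATTTATtacgatttat
Ier3 holds 4 of these heptamers in a region of 613 bases and Nr4a3 2 in 3093 bases.

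The members spanned a wide range of levels. In every library 8 of the 10 were at 1 TPM or more, and Nr4a2 and Ier3 were the exceptions. For comparison, 9926 of 21751 nuclear protein-coding genes (45.6%) met that mark. The median member was at 50.8 TPM and the median nuclear protein-coding gene at 0.355 TPM. Members were also compact genes: their median span in the genome was 5938 bases against 17224, and their principal transcripts had a median of 2 exons against 7. In bulk RNA, fewer cells that express a gene and less RNA per cell cannot be told apart.

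**Figure D1:**
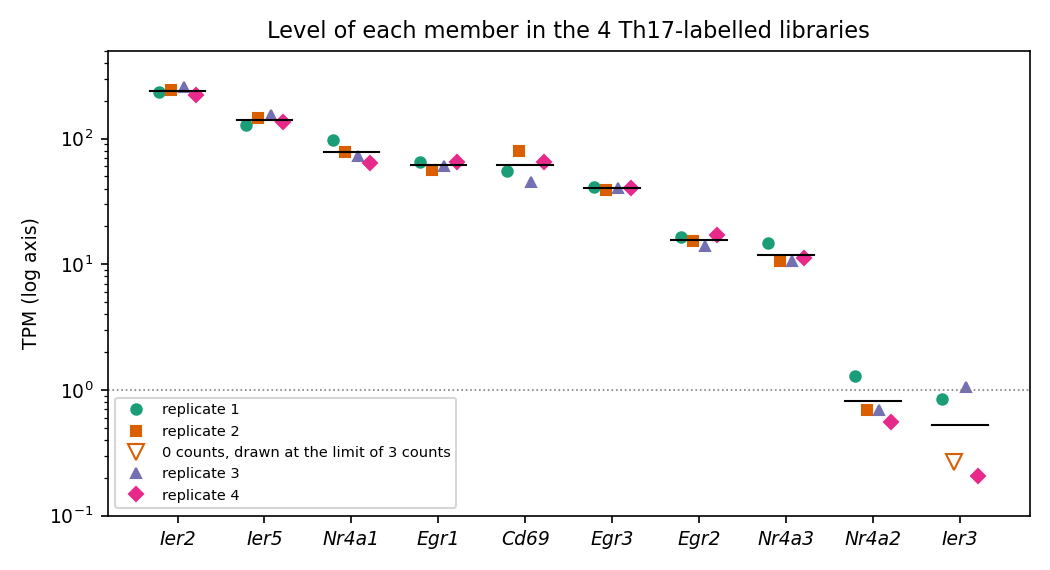
TPM (log axis) of each of the 10 genes in replicates 1 to 4, with 1 point per library, a black line for the mean and a dotted line at 1 TPM. Ier2 lies at 224 TPM or more in all 4 libraries, while Nr4a2 and Ier3 lie near or below 1 TPM, and the open triangle marks the limit of 3 counts for Ier3 in replicate 2.

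The EGR genes encode zinc finger transcription factors, and Egr2 and Egr3 are known for restraining T-cell activation. Egr1 (ENSMUSG00000038418, chromosome 18, plus strand) had levels of 64.6, 56.6, 60.5 and 64.6 TPM in replicates 1 to 4, with a mean of 61.6 ± 3.83. It ranked at the 86.1 percentile of nuclear protein-coding genes, and its 4 values lay close together. Egr3 (ENSMUSG00000033730, chromosome 14, 70077445 to 70080157, plus strand) was at 41.5, 38.8, 40.6 and 40.6 TPM, a mean of 40.4 ± 1.11. Its coefficient of variation was 2.75%, smaller than the 4.01% that counting error alone gives on average in a single library, at 489 to 818 counts. Egr2 (ENSMUSG00000037868, chromosome 10, 67535475 to 67542188, plus strand) was the lowest of the 3 at 16.4, 15.2, 13.97 and 17.0 TPM, a mean of 15.6 ± 1.32.

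The order Egr1, Egr3, Egr2 was the same in all 4 libraries. Egr1 exceeded Egr3 by 0.61 ± 0.058 and Egr2 by 1.97 ± 0.095 on the log2(TPM + 0.1) scale, and Egr2 was at -1.37 ± 0.118 relative to Egr3. Each of these 3 differences had the same sign in 4 of 4 libraries, and the exact two-sided sign-flip permutation test gave p = 0.13, from 2 of 16 sign assignments. That is the smallest p that 4 libraries allow, so no pair of genes could pass 0.05, and it was the same after adjustment over the 9 pairs tested. Without length correction (CPM, counts scaled for library total only) Egr2 was at -0.11 relative to Egr3 and lower in 3 of 4 libraries. The counted model of Egr3 is 1416 bases long, while its GENCODE M21 principal transcript has 3940 bases with a 3′ untranslated region of 2645. Summed over the family, EGR mRNA was at 122, 111, 115 and 122 TPM, of which Egr1 made up 52.4%.

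The corepressors that bind EGR proteins were expressed in every library. Nab2 was at 112 ± 5.72 TPM and Nab1 at 99.4 ± 7.19 TPM. The related zinc finger genes Egr4 and Wt1 had 0 counts in all 4 libraries, which allows up to 0.0982 to 0.168 TPM for Egr4 and 0.0341 to 0.0581 TPM for Wt1.

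The NR4A genes encode orphan nuclear receptors, and Nr4a1 (Nur77) is widely used as a reporter of antigen receptor signals. Nr4a1 (ENSMUSG00000023034, chromosome 15, 101266846 to 101274792, plus strand) had 97.3, 78.5, 72.2 and 63.5 TPM, a mean of 77.9 ± 14.3. Replicate 1 was highest and replicate 4 lowest, a ratio of 1.53. Nr4a3 (ENSMUSG00000028341, chromosome 4, 48045153 to 48086447, plus strand) was at 14.8, 10.7, 10.7 and 11.2 TPM, a mean of 11.8 ± 1.98. Its replicate 1 stood apart, and the other 3 libraries lay between 10.7 and 11.2 TPM. Nr4a2 (ENSMUSG00000026826, chromosome 2, 57106830 to 57124003, minus strand) had 1.30, 0.695, 0.693 and 0.553 TPM, a mean of 0.810 ± 0.334, from 44, 28, 40 and 29 counts. In a single library counting error alone gives on average a coefficient of variation of 17.2%, and the observed value was 41.2%.

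Nr4a1 made up 86.0% of NR4A mRNA, which summed to 113, 90.0, 83.5 and 75.2 TPM. It exceeded Nr4a3 by 2.70 ± 0.152 and Nr4a2 by 6.47 ± 0.237 on the log2(TPM + 0.1) scale, and Nr4a2 was at -3.76 ± 0.286 relative to Nr4a3. All 3 differences had 1 sign in 4 of 4 libraries (exact sign-flip permutation p = 0.13, adjusted p = 0.13). With a pseudocount of 1 the differences that involve Nr4a2, the lowest of the family, shrank to 5.44 for Nr4a1 over Nr4a2 and -2.83 for Nr4a2 over Nr4a3. All 3 NR4A genes were highest in replicate 1, where 27.0% of the 12464 genes tested were highest. Replicate 1 was also the smallest library and the one where the summed Th17 markers (30.9 TPM, against 19.0 to 20.7) and regulatory T-cell markers (24.4, against 18.6 to 22.3) were highest. Their part in the NR4A values was not tested.

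Of the nuclear receptors and corepressors that work with NR4A proteins, 4 of 5 were at 1 TPM or more in every library. The corepressor gene Ncor1 was at 169 ± 6.88 TPM. The retinoid X receptor gene Rxrb, which encodes a dimer partner, was at 109 ± 4.66 TPM and Rxra at 12.4 ± 0.428 TPM. Rxrg had 0 counts in all 4 libraries, which allows up to 0.0919 to 0.157 TPM.

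The IER genes share a name for their rapid induction, and IER2 and IER5 are related nuclear proteins. Ier2 (ENSMUSG00000053560, chromosome 8, 84661331 to 84662852, minus strand) has a single exon and was at 233, 243, 256 and 224 TPM, a mean of 239 ± 14.04. It was the member of highest TPM in all 4 libraries and ranked at the 97.4 percentile of nuclear protein-coding genes. Ier5 (ENSMUSG00000056708, chromosome 1, 155096361 to 155099636, minus strand), also of 1 exon, had 128, 145, 153 and 136 TPM, a mean of 141 ± 11.1. Both were highest in replicate 3. Ier3 (ENSMUSG00000003541, chromosome 17, 35821684 to 35822923, plus strand), a stress gene linked to cell survival, had 8, 0, 17 and 3 counts, or 0.849, 0, 1.06 and 0.205 TPM. The 0 in replicate 2 allows up to 0.267 TPM, so Ier3 was at the edge of detection at this depth.

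Ier2 exceeded Ier5 by 0.77 ± 0.067 on the log2(TPM + 0.1) scale, in 4 of 4 libraries (exact sign-flip permutation p = 0.13, adjusted p = 0.13). The direction rests on the length correction: Ier5 is 3276 bases long and Ier2 1522, and on the CPM scale Ier2 was at -0.34 relative to Ier5. Ier2 exceeded Ier3 by 9.13 ± 1.62, and Ier3 was at -8.36 ± 1.65 relative to Ier5, both in 4 of 4 libraries with the same p. With a pseudocount of 1 these were 7.36 and -6.59, since Ier3 had few counts.

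IER5 is known to act on the heat shock factor HSF1, and the heat shock list was the only one of the 12 pathway lists with genes called variable. The lists were chosen with earlier results of these data known, so this contrast is a description and not a test of the list. Of 15 heat shock genes tested, 8 were called by the edgeR test described below and 13 were highest in replicate 4, where 0.193% of all genes tested were called and 29.4% were highest in that library. Their summed level was 3336, 4242, 3893 and 6915 TPM. The called genes were Hsph1, Hsp90aa1, Hsp90ab1, Hspa8, Hspa1b, Dnaja1, Dnajb1 and Chordc1, which encode chaperones and their partners, and Hspa1b has a near-identical copy, so its counts are uncertain. Hsph1 was at 26.0, 65.4, 33.0 and 195 TPM, and Hsp90ab1 at 1557, 1846, 1762 and 3162 TPM. The endoplasmic reticulum chaperone gene Hspa5, which was not called, was at 248 ± 12.4 TPM. Ier5 in replicate 4, at 136 TPM, was within the range of the other 3 libraries, 128 to 153 TPM. A link between Ier5 and the heat shock genes was not tested, and mRNA level does not measure the activity of IER5.

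CD69 is a surface lectin that appears early after T-cell activation and holds cells in lymphoid tissue by binding the egress receptor S1PR1. Cd69 (ENSMUSG00000030156, chromosome 6, 129267325 to 129275436, minus strand) had 54.8, 79.7, 45.4 and 65.3 TPM, a mean of 61.3 ± 14.7. Replicate 2 was highest and replicate 3 lowest, a ratio of 1.76. Counting error was 1.54% on average in a single library, at 2973 to 5493 counts, against an observed coefficient of variation of 24.0%. S1pr1 was at 837, 613, 758 and 608 TPM. The libraries with the most Cd69 mRNA, replicates 2 and 4, had the least S1pr1 mRNA. This split was not particular to S1pr1. Tcf7 (3287, 2785, 3417 and 2649 TPM) and Ccr7 (929, 815, 924 and 793 TPM) were also lowest in replicates 2 and 4. Il7r (632, 971, 654 and 956 TPM), like Cd69, was highest there. With 4 libraries no correlation is given, and a link between Cd69 and S1pr1 was not tested. Among the other genes of the egress route, Gnai2, a G protein subunit, was at 560 ± 11.96 TPM, Klf2, the factor that drives S1pr1, at 464 ± 18.5 TPM, and S1pr4 at 245 ± 8.39 TPM. Of 9 genes of this route 7 were at 1 TPM or more in every library. By the edgeR test 0 of 7 tested were called variable, where 0.193% of all genes tested were. At an edgeR unadjusted p below 0.05 there were 2, against 5.34% of all genes tested.

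In order of mean TPM the members ran Ier2, Ier5, Nr4a1, Egr1, Cd69, Egr3, Egr2, Nr4a3, Nr4a2, Ier3. The ranges of neighbours were separate for Ier2 and Ier5, Ier5 and Nr4a1, Cd69 and Egr3, Egr3 and Egr2, and Nr4a3 and Nr4a2. They overlapped for Nr4a1 and Egr1, where Nr4a1 was higher in 3 of 4 libraries, and for Egr1 and Cd69, where Egr1 was higher in 2 of 4. Egr2 and Nr4a3 overlapped in range although Egr2 was higher in 4 of 4, and Nr4a2 was above Ier3 in 3 of 4.

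The place of Cd69 depends on its gene model. The deposited length of 6509 bases counts all annotated exons, while its principal transcript has 1687 bases. With the principal transcript's length, never longer than the deposited length, an alternative chosen after seeing the data, Cd69 was at 145, 211, 120 and 173 TPM, a mean of 162 ± 38.9. It then stood beside Ier2, at 164 ± 9.79 TPM, with each higher in 2 of 4 libraries. Cd69 was the only member whose union length was at least 2 times its principal transcript, as it was for 12.98% of nuclear protein-coding genes. Egr3 stayed at its 1416 counted bases and Nr4a1 at 2474 in this alternative, so the order of Egr3 and Egr2 at the full 3940 bases of the Egr3 transcript was not tested.

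**Figure D2:**
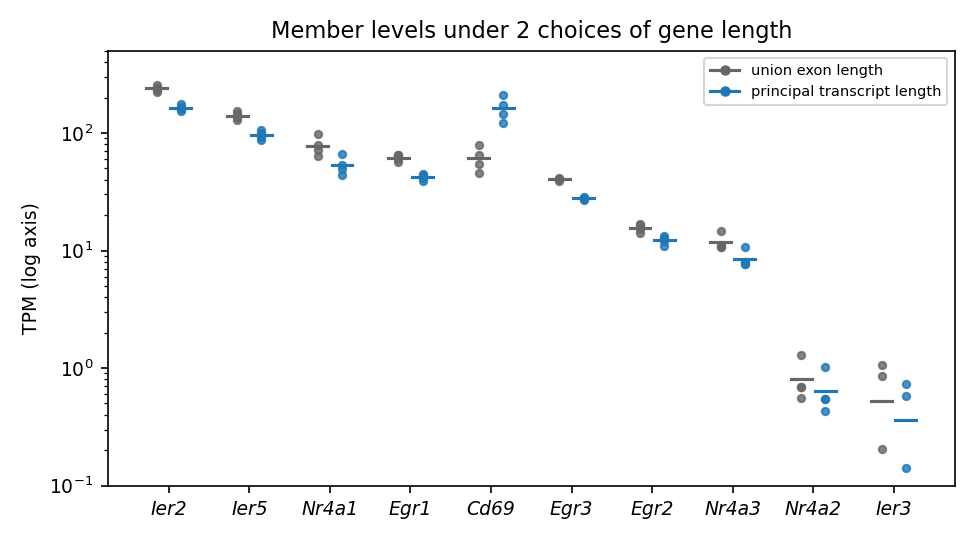
TPM (log axis) of the 10 genes with the union exon length of the deposited tables (grey) and with principal transcript length, never longer than the deposited length (blue), so that Egr3 and Nr4a1 keep their deposited lengths, points for single libraries and lines for their mean, with the 0 of Ier3 in replicate 2 not drawn. Cd69 rises from a mean of 61.3 to 162 TPM, while Ier2 moves from 239 to 164 TPM because the whole TPM scale shifts.

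Spread between libraries was tested with edgeR's quasi-likelihood dispersion, fitted on all 12464 genes past a filter on low counts, which Ier3 did not pass. A gene is called variable when its dispersion exceeds the trend for its abundance with a Benjamini-Hochberg adjusted p below 0.05. None of the members was called (0 of 9), where 0.193% of all genes tested were called, 24 genes. At an unadjusted p below 0.05 there were 2 of 9 members, Cd69 and Nr4a1, against 5.34% of genes, and DESeq2 called 1 of 9, Cd69, as a dispersion outlier, against 0.866% of genes. The 2 members at an edgeR unadjusted p below 0.05 became 1 of 9 without replicate 1 (Nr4a1 at an edgeR unadjusted p of 0.147). In that fit 680 of 12780 genes were below 0.05. Without replicate 4 there were 4 of 9 members, beside 763 of 12472 genes. With no filter on low counts there were 5 of 10 members, Ier3 being tested too, beside 1517 of 21421 genes. Cd69 had a dispersion 19.4 times the trend (edgeR unadjusted p = 0.000927, adjusted p = 0.189) and ranked 61 of 12464 by p. Nr4a1 had a dispersion 8.40 times the trend (edgeR unadjusted p = 0.0103, adjusted p = 0.570). Egr3 was at the other end, with a dispersion 0.160 times the trend (edgeR unadjusted p = 0.920).

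The call of Cd69 depends on which libraries, filter and method are used. Without replicate 4 its edgeR adjusted p was 0.000209, in a fit that called 86 genes (0.69%), and without replicates 1, 2 or 3 it was 0.115, 0.701 and 0.719. With no filter on low counts both Cd69 (edgeR adjusted p = 3.13e-08) and Nr4a1 (edgeR adjusted p = 0.0293) were called, in a fit that called 349 of 21421 genes (1.63%). No member was called without replicate 1, where 0.235% of genes were, or among genes at a mean of 5 CPM or more, where 0.107% were. The biological coefficient of variation was 9.80% over all genes, 19.6% for Cd69, 12.3% for Nr4a1 and from 7.55% to 9.30% for the EGR genes.

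**Figure D3:**
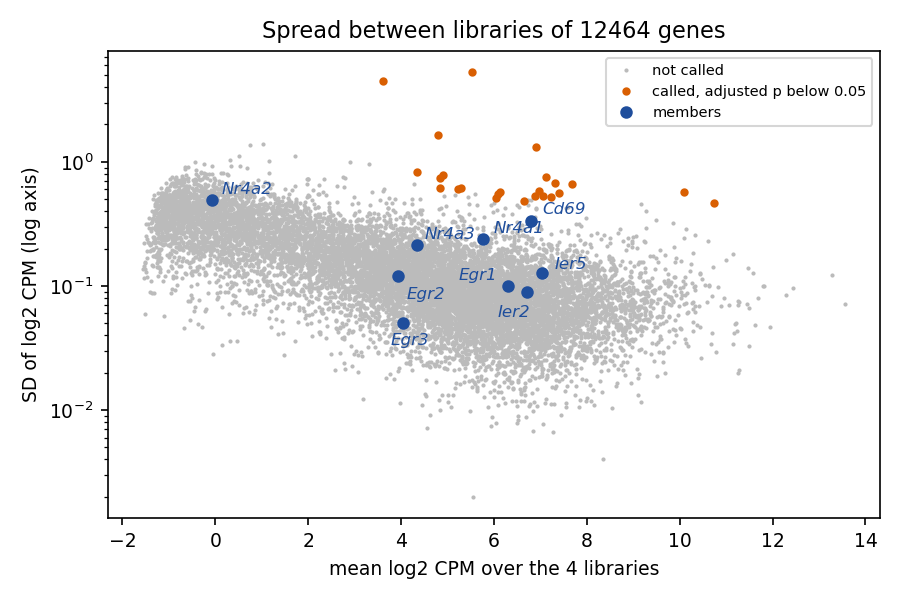
SD of log2 CPM over the 4 libraries (log axis) against mean log2 CPM for 12464 genes, with the 9 tested members in blue and the 24 called genes in orange. Cd69 and Nr4a1 lie above most genes of their abundance and Egr3 below.

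Relative to its own mean over the libraries, Cd69 was at -0.15, 0.39, -0.38 and 0.14 log2 CPM in replicates 1 to 4, with replicates 2 and 4 above. Nr4a1 was at 0.32, 0.01, -0.07 and -0.26, with replicate 1 highest. No single pattern over the libraries was shared by all families: the NR4A genes were highest in replicate 1, Ier2 and Ier5 in replicate 3, Egr1 and Egr2 in replicate 4 and Cd69 in replicate 2. Egr3 moved by 0.11 from its lowest to its highest library. The mean profile of the 9 tested members was 0.12, -0.01, -0.06 and -0.05. The genes nearest to it by Euclidean distance over the 4 libraries were Ttc17 (0.0109), Gtf2h4 (0.0122) and Xpnpep3 (0.0153). Nearest to Nr4a2, the member of largest SD, were Gm15850 (0.0372), AA413626 (0.0876) and Tubg2 (0.0969). With 4 libraries and 12464 genes, close profiles are found for any gene.

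**Figure D4:**
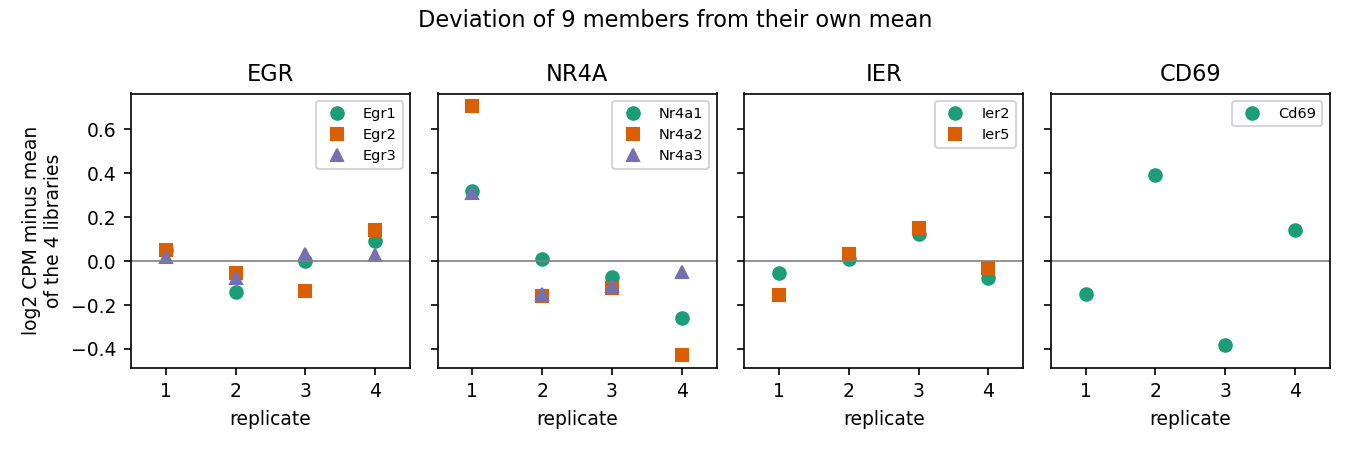
Log2 CPM of 9 members minus their own mean over the 4 libraries, by replicate, in panels for the EGR, NR4A and IER genes and Cd69. The 3 NR4A genes are highest in replicate 1 and Cd69 ranges from -0.38 in replicate 3 to 0.39 in replicate 2.

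The routes that lead to these genes were present as mRNA. All 19 genes of the ERK and serum response factor route were at 1 TPM or more in every library. Their median was 78.1 TPM, where the median of all genes tested was 25.0 TPM. By edgeR 0 of 19 were called variable, against 0.193% of all genes tested. At an edgeR unadjusted p below 0.05 there were 0, against 5.34% of all genes tested. Rasgrp1, which starts ERK signalling in T cells, was at 368 ± 40.6 TPM, the kinase gene Rps6ka1 at 233 ± 6.97 TPM, the coactivator gene Mrtfa at 132 ± 8.99 TPM and the ETS factor gene Elk4 at 132 ± 6.63 TPM. Of 18 genes of the calcium, MEF2 and CREB route 17 reached that level, with a median of 61.3 TPM. Of the 17 tested 0 were called, against 0.193% of all genes tested. At an edgeR unadjusted p below 0.05 there were 3, where 5.34% of all genes tested were. Hdac7, a corepressor of MEF2, was at 194 ± 7.36 TPM, Mef2d at 174 ± 10.9 TPM, the calcineurin subunit gene Ppp3r1 at 138 ± 3.78 TPM and Nfatc3 at 119 ± 8.78 TPM.

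Other immediate early genes were also transcribed. Of 11 AP-1 genes 8 were at 1 TPM or more in every library. Of 9 tested edgeR called 0, against 0.193% of all genes tested. At an edgeR unadjusted p below 0.05 there were 3, where 5.34% of all genes tested were. Jun was at 104, 132, 180 and 115 TPM and Fos at 90.3, 96.0, 143 and 64.9 TPM, both highest in replicate 3, as Ier2 and Ier5 were. Jund was at 358 ± 35.1 TPM and Junb at 295 ± 56.3 TPM. Of 45 other immediate early genes 37 reached 1 TPM in every library, with a median of 46.3 TPM. Of 40 tested 0 were called, against the same 0.193% of all genes tested. At an edgeR unadjusted p below 0.05 there were 9, against the same 5.34% of all genes tested. Their highest members were Zfp36l2 (629 ± 187.5 TPM), Mcl1 (566 ± 54.2 TPM), Btg1 (482 ± 11.2 TPM) and Klf2.

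The factors listed for decay of AU-rich mRNAs were abundant, and all 12 were at 1 TPM or more in every library, with a median of 78.6 TPM. By edgeR 0 of 12 were called, against 0.193% of all genes tested. At an edgeR unadjusted p below 0.05 there were 3, where 5.34% of all genes tested were. Zfp36, which promotes decay of such mRNAs, was at 318 ± 20.8 TPM, its relative Zfp36l1 at 270 ± 8.20 TPM and Khsrp at 171 ± 18.9 TPM. All 13 genes listed as markers of tonic receptor signal strength, or as carriers of those signals, were above 1 TPM in every library. Their median was 312 TPM, and their means ran from 1.94 to 1351 TPM. Whether each marker rises or falls with signal strength was not considered, so the median is no measure of that strength. Of these 13 genes edgeR called 0, against 0.193% of all genes tested. At an edgeR unadjusted p below 0.05 there were 2, against 5.34% of all genes tested. The receptor kinase gene Lck was at 1351 ± 38.9 TPM, Cd5 at 875 ± 85.6 TPM, Cd6 at 584 ± 50.9 TPM and the phosphatase gene Ptprc at 545 ± 7.31 TPM.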

How the data were processed

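RNA was sequenced from 4 Th17-labelled libraries of 1 group. The labels call the assay total RNA-seq, while the linked library protocol is titled for poly(A)+ RNA. The authors deposited raw fragment counts per gene, made per the file headers by featureCounts 1.4.6-p4 from exons annotated in GENCODE M13 (mm10), in pairs, on the reverse strand. Which aligner version was run is not given in sources used here.

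Gene IDs, stripped of their version, were given symbols through GENCODE M21, which matched 50376 of 50600 rows, and 4 of 250 list symbols matched through a RefSeq synonym. No other annotated gene overlapped a member. TPM was computed here from the counts and the exon lengths in the same tables. The spread test used edgeR 4.0.16 (TMM factors, filterByExpr, robust quasi-likelihood fit with an intercept only, one-sided F test against the prior trend) and was tested on simulated data, with DESeq2 1.42.0 as an alternative. The 9 pairs within families were compared with a pseudocount of 0.1. Limits for a count of 0 are 3 counts per library and cover counting error only.

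The members, the 12 pathway lists and the 9 marker lists were chosen with earlier results of these data known. Named genes were the members, up to 4 genes of each pathway list by mean TPM and any called, and the 3 nearest profiles. Cd8a, Cd8b1, Cd14, Cd68, Itgam, Rxrg, Tcf7, Ccr7, Il7r, Il2, Il2ra, Mki67, Ifng, Lag3 and Havcr2 were named after their values were seen. Not every gene under this rule is reported here. Alternatives covered normalization, filters, length, pseudocount and single libraries left out.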

Additional observations from a re-analysis of the deposited data

Results flagged for a closer look

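The value of Nr4a3 in replicate 1, 14.8 TPM, stood apart from 10.7, 10.7 and 11.2 TPM in the other libraries. Its gap to the nearest library was 0.882 of the whole range, above Dixon's 95% critical value for 4 samples. Dgkz, a diacylglycerol kinase gene listed among tolerance targets of EGR and NR4A factors, was at 403, 428, 404 and 407 TPM. Its replicate 2 stood apart by 0.869 of the range. The test was run on 59 genes, of which 2 stood out, and chance gives about 2.95.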

How the results depend on the processing

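Members called variable by edgeR numbered 0 of 9 with all libraries, 2 with no filter on low counts, 1 among DESeq2 dispersion outliers and 0 to 1 when single libraries were left out, the 1 being Cd69 without replicate 4. Over all genes 24 were called, against 349 with no filter, 5 with a fit not made robust, 10 at a mean of 5 CPM or more, 6 among nuclear protein-coding genes only, 108 by DESeq2 and 7 to 86 with single libraries left out. Ier2 relative to Ier5 turned to -0.336 in CPM (log2), where no length is taken into account. In CPM the order began Ier5, Cd69, Ier2. Of the other recomputed counts and pair differences, 89 kept their direction and side of the threshold, or stayed within 1.5 times. No analysis paired between conditions was possible because the libraries form 1 group. Depth limits Ier3 (28 counts in all) and Nr4a2 (141), and with 4 libraries no exact permutation test of a pair could pass 0.05.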

Other observations

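Genes listed as tolerance targets of EGR and NR4A factors were measured as well. Whether each is a target of these factors was not tested. Of 23 such genes 19 were at 1 TPM or more in every library, with a median of 11.6 TPM. Of 19 tested 0 were called variable by edgeR at an adjusted p below 0.05, where 0.193% of all genes tested were. At an edgeR unadjusted p below 0.05 there was 1, against 5.34% of all genes tested. Dgka was at 1813 ± 103 TPM (SD, n = 4) and Dgkz at 410.3 ± 11.7 TPM, both of which encode kinases that remove diacylglycerol. The ubiquitin ligase gene Cbl was at 162 ± 14.7 TPM and Izumo1r, the gene of folate receptor 4, at 153 ± 2.27 TPM. These were the 4 highest of the list, while Lag3 was at 1.69 ± 0.128 TPM and Havcr2 at 0.0228 ± 0.0159 TPM.

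Genes of full T-cell activation had a median of 6.30 TPM over 16 genes, and 12 were at 1 TPM or more in every library. The 4 highest were Ldha, Myc, Slc7a5 and Tfrc. Ldha, a glycolytic enzyme gene, was at 517 ± 37.1 TPM, Myc at 99.2 ± 11.4 TPM, the amino acid transporter gene Slc7a5 at 61.0 ± 8.29 TPM and the transferrin receptor gene Tfrc at 34.4 ± 3.07 TPM. Il2 was at 4.63 ± 1.49 TPM, Il2ra at 4.14 ± 0.863 TPM and Mki67 at 1.05 ± 0.254 TPM. Ifng had 0 counts in all 4 libraries, which allows up to 0.163 to 0.278 TPM. Of the 13 tested 0 were called variable by edgeR, against 0.193% of all genes tested. At an edgeR unadjusted p below 0.05 there were 2, where 5.34% of all genes tested were. Of the same 13, 8 were highest in replicate 1, where 27.0% of all genes tested were.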
